A study of Mus musculus with 4 samples.

Results

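The genes described are markers of pluripotency, the state of cells that can form every tissue of the embryo. They were chosen by RefSeq identifier from a list of 10, namely Pou5f1 (NM_013633), Nanog (NM_028016), Sox2 (NM_011443), Zfp42 (NM_009556), Klf4 (NM_010637), Tdgf1 (NM_011562), Lin28a (NM_145833), Esrrb (NM_011934), Utf1 (NM_009482) and Dppa5a (NM_025274). Of these, 9 were on the arrays, out of 33226 systematic names, with 12 of the 39428 probes that gave a usable signal in every population. Nanog was read by 2 probes, Tdgf1 by 3 and the other 7 genes by 1 each. No probe carried the Esrrb identifier NM_011934.

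RNA of 4 sorted mouse cell populations was measured with 1-colour Agilent arrays, 1 array each and all on 1 slide. The labels describe the cells as embryonic stem cells (ESCs) differentiated without leukemia inhibitory factor, and no array of undifferentiated ESCs was analysed here. Flk1+ MPCs are mesodermal precursor cells at day 4.5. PCBs, cardioblasts described in the study as PDGFRα+Flk1-, were taken at day 5.5 after CsAYTE, a mixture of Cyclosporin A, Y27632 (against the kinase ROCK), EW7197 (against the TGF-beta receptor ALK5) and Trolox (an antioxidant). The sfPCBs formed spontaneously by day 5.5 without CsAYTE, and DMSO served as vehicle in the controls. M+CMs are αMHC+ cardiomyocytes at day 10.5. The study describes M+CMs as derived from PCBs, and their label does not say whether CsAYTE was given. In the study's methods the MPCs were replated on OP9 stromal feeder cells or on gelatin, and the EMG7 ESC line expresses GFP from the αMHC promoter, but the labels name neither the line nor the surface used for the arrays. The study reports no induction of mouse PCBs without feeder cells. Genotype and strain are not given in the labels.

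Of the 43020 non-control spots on an array, 73.3% to 76.2% were called well above background by the scanner software. Values are processed signals scaled to a common 75th percentile (scaled signals, in arbitrary units), given as value ± the software's error of that spot. This error covers the spot and its background only. With 1 array per population there was no replicate and no test, so differences between cultures had no estimate. A difference is described as larger than the error when it exceeded 2 errors of the log2 difference, and counts use a 2-fold limit. In sorted bulk populations, fewer cells expressing a gene and less RNA per cell cannot be told apart.

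The populations were checked against defining markers of each stage. Mesp1, T, Mixl1 and Eomes, regulators of early mesoderm, had scaled signals between 4837 and 42204 in Flk1+ MPCs, and at most 37.8 in PCBs. In sfPCBs all were still well above background, Eomes at 4554, Mesp1 at 179, T at 82.0 and Mixl1 at 32.6. Kdr, which encodes Flk1, was read by 2 probes. The A_51_P316553 probe gave 54864 in Flk1+ MPCs, 4559 in sfPCBs and 768 in PCBs, and 2126 in M+CMs, and the A_55_P2094469 probe stayed between 6661 and 11263. The cardiac genes Myh6 and Tnnt2 were at 116 and 150.2 in Flk1+ MPCs, 128 and 3176 in sfPCBs, 82857 and 145595 in PCBs and 478627 and 403180 in M+CMs. Pdgfra was at 7237, 3647, 9136 and 918 in the same order.

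Pluripotency is held by a small network of transcription factors. Pou5f1 (Oct4) and Sox2 bind DNA side by side and maintain their own genes and those of Nanog and Zfp42, and the network is shut down as cells enter the germ layers. Sox2 is then used again in neural and other lineages, Klf4 in many differentiated tissues, and Tdgf1 in early mesoderm and heart, so these genes are not specific to pluripotent cells. Pou5f1 reads the octamer, and its core ATGCAAA was searched on both strands in the 250 bases before each annotated start in RefSeq (GRCm38.p6). Windows, 12 in all, were listed for 9 of the 10 genes, and those of 3 genes held the core. Of all 32851 such windows, counted by window and not by gene, 1355 (4.12%) held it. These 3 are shown because their genes are members whose levels are set beside those of Pou5f1 and Sox2, with the match in capitals.
Sox2: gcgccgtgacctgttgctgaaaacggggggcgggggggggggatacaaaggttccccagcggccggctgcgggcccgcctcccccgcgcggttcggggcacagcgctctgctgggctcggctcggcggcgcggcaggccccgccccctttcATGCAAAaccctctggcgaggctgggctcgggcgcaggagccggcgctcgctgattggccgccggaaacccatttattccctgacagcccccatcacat
Zfp42: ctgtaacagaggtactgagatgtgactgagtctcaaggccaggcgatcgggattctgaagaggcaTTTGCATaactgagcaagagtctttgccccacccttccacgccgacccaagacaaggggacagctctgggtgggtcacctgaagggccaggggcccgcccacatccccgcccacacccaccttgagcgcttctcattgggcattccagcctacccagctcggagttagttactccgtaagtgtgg
Nanog: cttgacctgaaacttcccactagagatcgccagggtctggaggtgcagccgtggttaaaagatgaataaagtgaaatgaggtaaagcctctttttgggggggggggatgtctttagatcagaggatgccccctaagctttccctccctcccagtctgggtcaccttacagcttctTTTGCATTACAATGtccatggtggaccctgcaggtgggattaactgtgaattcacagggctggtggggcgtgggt
The Sox2 window is chr3:34649745-34649994 on the + strand, the Zfp42 window chr8:43307010-43307259 on the - strand and the Nanog window chr6:122707239-122707488 on the + strand. The match begins 99 bases before the start in Sox2, 185 in Zfp42 and 75 in Nanog. In Nanog the capitals mark a longer arrangement read from the other strand, the Sox letters CATTGT, 1 free base and the octamer core. This arrangement contains the core counted above and was found in 2 of the 32851 windows, which are those of the 2 annotated Nanog starts. These matches describe letters only, and binding was not measured.

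Pou5f1, the central factor of the network, was highest in Flk1+ MPCs, lower but still detected in sfPCBs, and at or near background in PCBs and M+CMs. Its scaled signal was 897 ± 89.7 in Flk1+ MPCs, 71.6 ± 7.78 in sfPCBs and 12.9 ± 3.35 in PCBs, and 18.0 ± 3.56 in M+CMs. The PCB signal was not well above background, so the difference from Flk1+ MPCs is a bound, at least 57.7-fold lower in PCBs. It was computed against the lowest signal called well above background on that array (15.5). Some signals not well above background exceeded that value, such as Ttr at 19.3 in PCBs. The words at least are therefore nominal here and below, and hold for this scaling and background only. The sfPCBs were 12.5-fold lower than Flk1+ MPCs (log2 difference -3.65 ± 0.21), and PCBs in turn were at least 4.61-fold lower than sfPCBs on this bound. With normexp background correction or an offset of 50, PCBs were under 2-fold below sfPCBs (log2 differences -0.78 and -0.95). PCBs and M+CMs did not differ beyond the error.

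Nanog, a factor that stabilises the pluripotent state, gave opposite patterns on its 2 probes. The A_55_P2007703 probe followed Pou5f1, with scaled signals of 745 ± 74.6 in Flk1+ MPCs, 48.0 ± 6.11 in sfPCBs and 20.7 ± 4.37 in PCBs, and 20.2 ± 4.28 in M+CMs. On this probe PCBs were 36.0-fold lower than Flk1+ MPCs (log2 difference -5.17 ± 0.34). The PCB signal lay near background, and with normexp background correction or an offset of 50 the log2 difference was -3.12 or -3.49. The A_55_P2007699 probe was lowest in Flk1+ MPCs, at 194 ± 19.7, and read 256 ± 25.8 in sfPCBs and 434 ± 43.6 in PCBs, and 906 ± 90.6 in M+CMs. On that probe PCBs were 2.24-fold higher than Flk1+ MPCs (log2 difference 1.16 ± 0.21). Both probes carry the identifier NM_028016, the probe sequences were not analysed here, and which of them reads the coding transcript was not tested. The direction of Nanog between these populations is therefore not settled by the arrays.

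Sox2, the partner of Pou5f1 and also a neural progenitor factor, did not follow Pou5f1. Its scaled signal was 167 ± 17.1 in Flk1+ MPCs, 877 ± 87.8 in sfPCBs and 217 ± 22.0 in PCBs, and 8.46 ± 3.75 in M+CMs. It was thus highest in the day 5.5 cells formed without CsAYTE, 5.26-fold above Flk1+ MPCs (log2 difference 2.39 ± 0.21) and 4.05-fold above PCBs (PCB minus sfPCB log2 difference -2.02 ± 0.21). PCBs and Flk1+ MPCs did not differ beyond 2 errors. The M+CM signal was not well above background, which made it at least 14.1-fold lower than in PCBs.

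**Figure D1:**
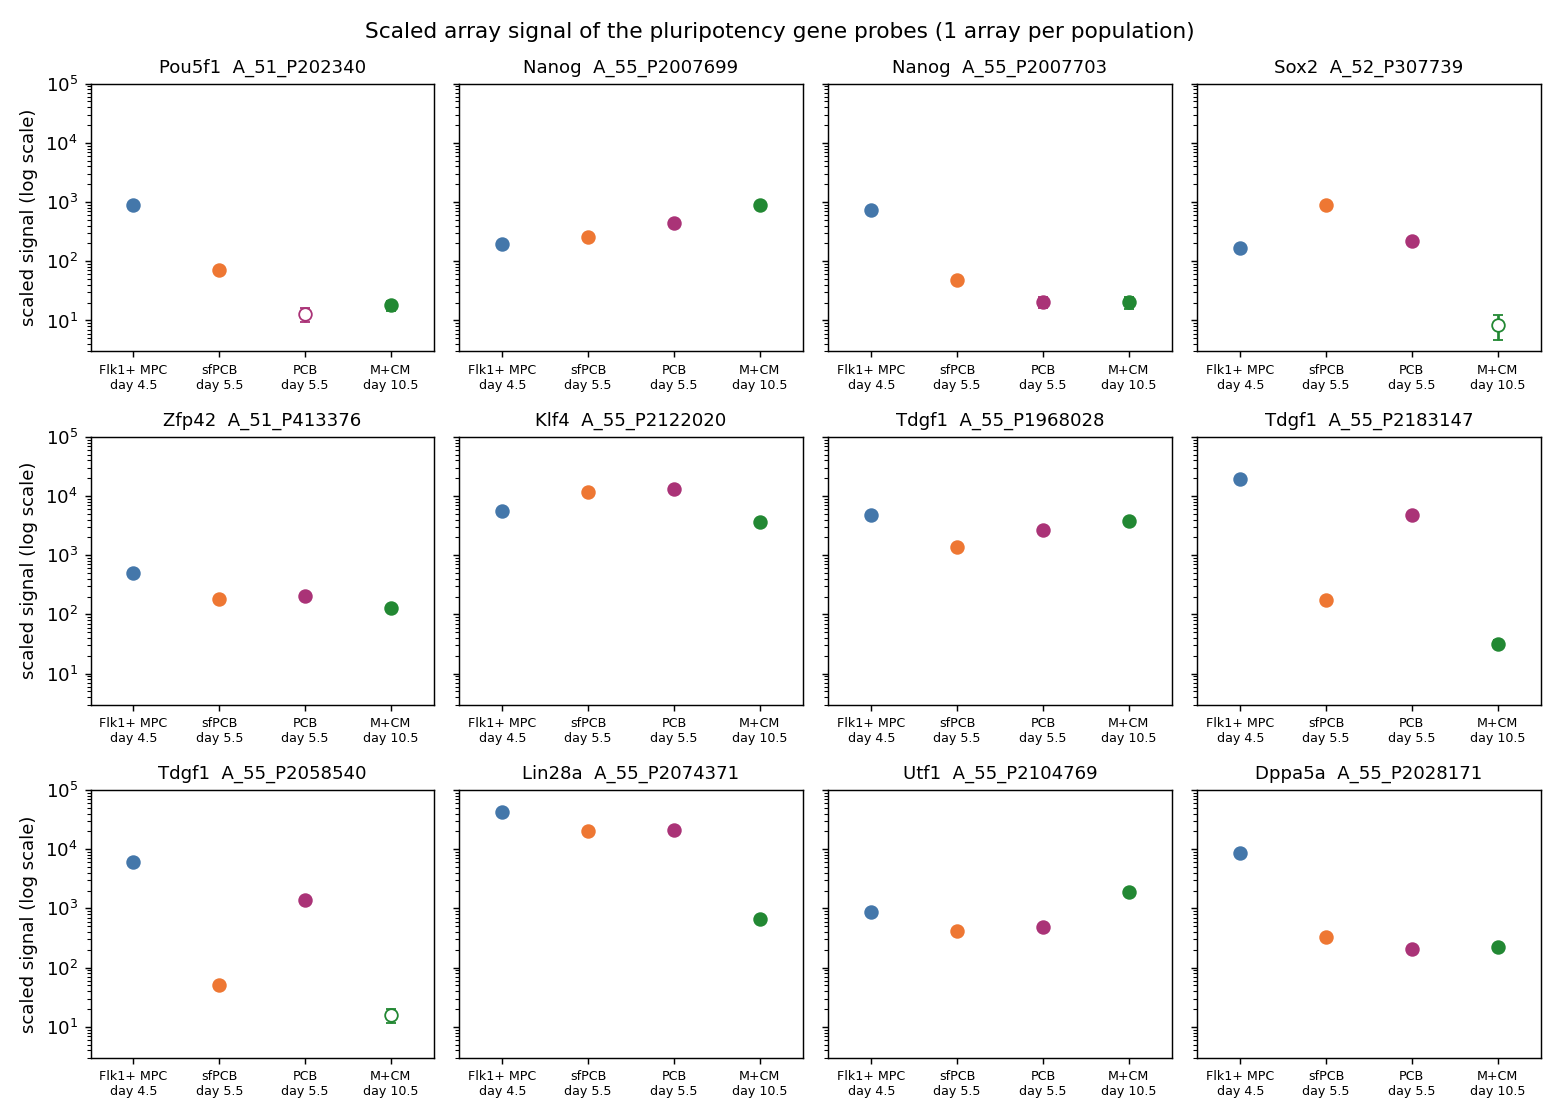
Scaled signal (log axis, arbitrary units) of each of the 12 probes in Flk1+ MPCs, sfPCBs, PCBs and M+CMs, 1 array each. Bars are the software's error of the spot and open circles are signals not well above background. Pou5f1 and the A_55_P2007703 probe of Nanog are highest in Flk1+ MPCs, Sox2 is highest in sfPCBs at 877, and Tdgf1 on 2 of its 3 probes is high in Flk1+ MPCs and PCBs only.

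The remaining transcription factors covered a narrower range. Klf4, a zinc finger factor also used in epithelia and vessel walls, was at 5647 ± 565 in Flk1+ MPCs, 11590 ± 1159 in sfPCBs and 13280 ± 1328 in PCBs, and 3638 ± 364 in M+CMs. It was higher at day 5.5 than at day 4.5 and day 10.5, 2.35-fold above Flk1+ MPCs in PCBs and 2.05-fold in sfPCBs, with no difference beyond the error between the 2. Zfp42 (Rex1), a zinc finger marker of naive ESCs, was at 497 ± 49.8, 184 ± 18.6, 206 ± 20.8 and 127 ± 13.1 in the order Flk1+ MPC, sfPCB, PCB and M+CM. Its signal was 2.42-fold lower in PCBs and 2.70-fold lower in sfPCBs than in Flk1+ MPCs, and PCBs and sfPCBs overlapped within the error. Utf1, a chromatin-bound factor of undifferentiated cells, was at 871 ± 87.2, 422 ± 42.4, 491 ± 49.3 and 1860.05 ± 186 in the same order. Among the members, M+CMs were therefore the highest population for Utf1 and for the A_55_P2007699 probe of Nanog, and Utf1 was 3.79-fold higher there than in PCBs (log2 difference 1.92 ± 0.20).

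Esrrb, an orphan nuclear receptor of naive ESCs, was represented by another identifier, NM_001159500 (probe A_55_P1954302), which lies outside the list and was not counted. Its scaled signal was 1242 ± 124 in Flk1+ MPCs, 169 ± 17.2 in sfPCBs and 66.6 ± 7.39 in PCBs, and 961 ± 96.1 in M+CMs. The 2 day 5.5 populations were both far below the earlier and the later one.

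Tdgf1 (Cripto), the membrane-anchored co-receptor of Nodal, was higher in PCBs than in sfPCBs on all 3 of its probes, by a wide margin on 2 of them. The A_55_P2183147 probe gave scaled signals of 19451 ± 1945 in Flk1+ MPCs, 176 ± 18.1 in sfPCBs and 4776 ± 478 in PCBs, and 31.8 ± 4.88 in M+CMs. The A_55_P2058540 probe gave 6048 ± 605, 50.4 ± 6.32, 1395 ± 140 and 15.8 ± 4.26 in the same order, the last not well above background. PCBs were thus 4.07-fold and 4.33-fold lower than Flk1+ MPCs, and sfPCBs were 110-fold and 120.0-fold lower. PCBs were 27.1-fold and 27.7-fold higher than sfPCBs (log2 differences 4.76 ± 0.21 and 4.79 ± 0.23). The remaining probe, A_55_P1968028, was much flatter, at 4697 ± 470, 1386 ± 139, 2700 ± 270 and 3730 ± 373. It gave the same order of the Flk1+ MPCs, PCBs and sfPCBs, with PCBs 1.95-fold above sfPCBs, but its M+CM signal was close to that of Flk1+ MPCs where the other probes were lowest.

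Nodal, the ligand that signals with Tdgf1, went the other way between the day 5.5 populations. Its scaled signal was 8675 in Flk1+ MPCs, 7382 in sfPCBs and 161 in PCBs, and 143 in M+CMs. PCBs therefore had the higher Tdgf1 on all 3 probes and the lower Nodal (log2 difference from sfPCBs -5.52 ± 0.21).

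Lin28a, an RNA-binding protein that blocks maturation of let-7 microRNAs, was still high at day 5.5. Its scaled signal was 41647 ± 4165 in Flk1+ MPCs, 20061 ± 2006 in sfPCBs and 20839.5 ± 2084 in PCBs, and 673 ± 67.4 in M+CMs. The day 5.5 populations did not differ beyond the error and lay at the 2-fold limit below Flk1+ MPCs (2.08-fold lower in sfPCBs, 1.998-fold in PCBs), so that 1 of them was counted and the other not. M+CMs were 31.0-fold lower than PCBs (log2 difference -4.95 ± 0.20). Dppa5a, an RNA-binding protein abundant in ESCs and early germ cells, had a different timing. It was at 8781 ± 878 in Flk1+ MPCs, 327 ± 32.9 in sfPCBs and 209 ± 21.2 in PCBs, and 225 ± 22.8 in M+CMs, so it was 42.0-fold lower in PCBs and 26.9-fold lower in sfPCBs with no difference beyond the error between PCBs and M+CMs.

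**Figure D2:**
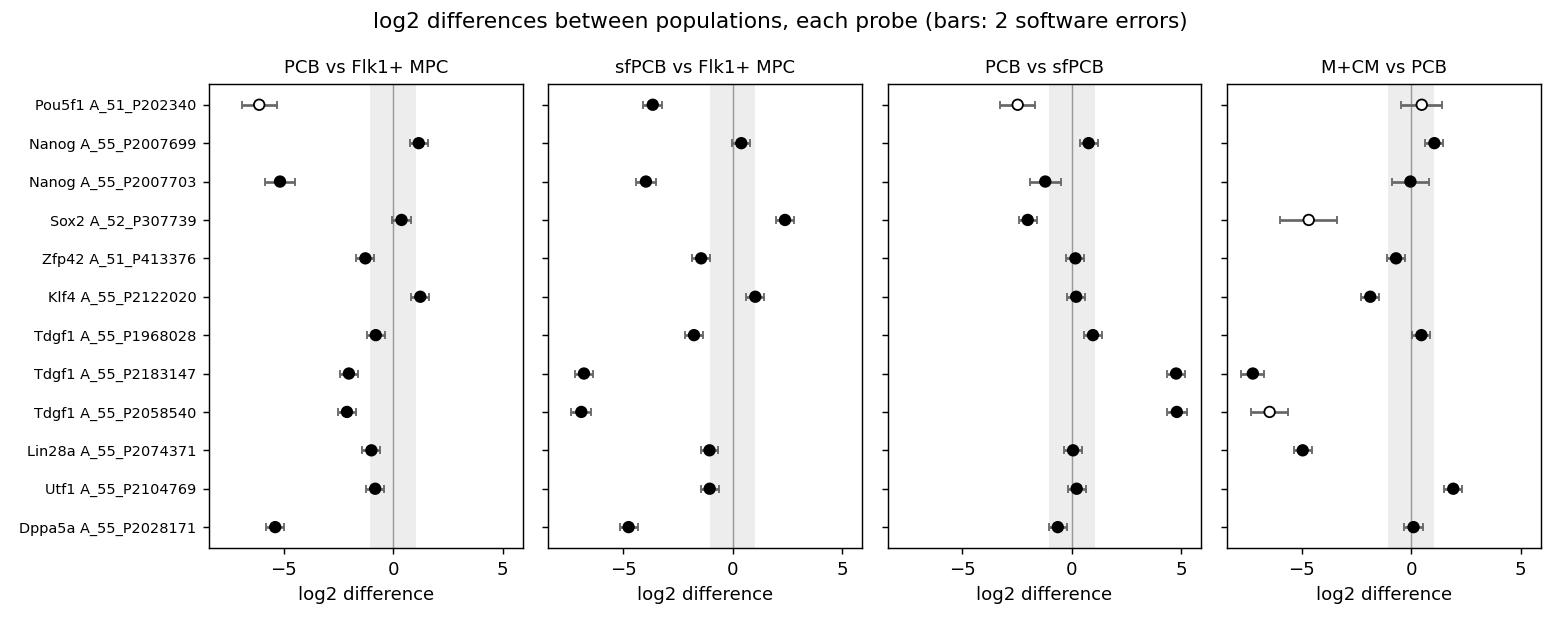
log2 difference of the scaled signal for each of the 12 probes in each of 4 comparisons (named above the panels). Bars are 2 software errors, open circles involve a signal not well above background, and the grey band is within 2-fold. The probes of Nanog and of Tdgf1 lie apart within 1 gene, and 2 of the 3 Tdgf1 probes are the only ones beyond 2-fold higher in PCBs than in sfPCBs.

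Counted with 1 probe per gene (that with the highest mean log2 signal over the 4 arrays), the comparisons gave the following. Relative to Flk1+ MPCs, which are shared by the first 2 comparisons, 3 of 9 genes were at least 2-fold lower in PCBs (Pou5f1, Zfp42 and Dppa5a), against 12.1% of the 30811 probes compared, and 2 were higher (Klf4 and Nanog), against 12.8%. In sfPCBs, 6 of 9 were lower, which added Tdgf1, Lin28a and Utf1, against 12.6% of 30689 probes, and 2 were higher (Sox2 and Klf4), against 13.1%. Lin28a and Utf1 were close to the 2-fold limit in sfPCBs, and without scaling or with normexp background correction both fell inside it, which left 4 of 9 genes lower. The median log2 difference over the genes was -0.83 in PCBs and -1.05 in sfPCBs, and over all probes compared it was -0.20 and -0.22. For Nanog and Tdgf1 the choice of probe decides these counts. With every probe counted on its own, 6 of 12 were lower and 2 higher in PCBs, and 9 of 12 were lower and 2 higher in sfPCBs.

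Between the day 5.5 populations, the comparison of cells with and without CsAYTE at a matched day, 2 of 9 genes were at least 2-fold lower in PCBs (Pou5f1 and Sox2), against 7.36% of 30117 probes. None was higher on the probe that stood for it, against 6.13%, but both other Tdgf1 probes were. Of these, A_55_P2183147 was brighter than the probe counted in Flk1+ MPCs (19451 against 4697) and PCBs (4776 against 2700). It was dimmer in sfPCBs and M+CMs. The median log2 difference was 0.16, and 0.03 over all probes. For 4 genes (Zfp42, Klf4, Lin28a and Utf1) PCBs and sfPCBs differed by less than 2 errors. From PCBs to M+CMs, 3 of 9 genes were lower (Sox2, Klf4 and Lin28a), against 15.4% of 31131 probes, and 2 were higher (Nanog and Utf1), against 20.5%. The median log2 difference was 0.11, and 0.15 over all probes. With every probe counted, 5 of 12 were lower, the 2 others being those of Tdgf1.

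Further genes of the pluripotency network were taken from a list of 38 ESC regulators, enzymes and signalling genes, of which 34 were detected in PCBs or Flk1+ MPCs. In PCBs 20 of these were at least 2-fold lower than in Flk1+ MPCs and 4 were higher, against 12.1% and 12.8% of all probes compared, with a median log2 difference of -1.56 (-0.20 over all probes). Where both arrays had to be well above background, 16 were lower. In sfPCBs 16 were lower (14 with both arrays well above background) and 3 higher, against 12.6% and 13.1%, with a median of -0.84 (-0.22 over all probes). Lefty2, a Nodal inhibitor and target, was at 25874 in Flk1+ MPCs, 865 in sfPCBs and 95.7 in PCBs, and 190 in M+CMs. Prdm14, a repressor that guards naive pluripotency, was at 204 in Flk1+ MPCs and not well above background in the other 3 populations, at least 13.2-fold lower in PCBs. Fgf4, a growth factor gene bound by Pou5f1 and Sox2, was at 505 in Flk1+ MPCs and not well above background at day 5.5, at least 32.0-fold lower in PCBs and 33.4-fold lower in sfPCBs. Against sfPCBs, 9 of 32 detected genes were lower in PCBs and 2 were higher, beside 7.36% and 6.13% of all probes. With both arrays well above background, 7 were lower. In M+CMs 10 of 32 were lower than in PCBs and 7 were higher, beside 15.4% and 20.5%. The 4 that were higher in PCBs than in Flk1+ MPCs were Klf2, Il6st, Stat3 and Socs3, named after their values were seen. As a share of 34 genes, these 4 were not above the 12.8% of all probes. Nor were the 3 in sfPCBs above 13.1%, so no shared pathway change is read from them. Of these, Il6st, Stat3 and Socs3 belong to the receptor pathway used by leukemia inhibitory factor and by other cytokines. All 3 were also higher in sfPCBs than in Flk1+ MPCs (log2 differences 1.51, 1.41 and 2.75). Lifr, the receptor gene for leukemia inhibitory factor, was lower in PCBs than in Flk1+ MPCs (log2 difference -1.62). In sfPCBs Lifr was under 2-fold lower (-0.73).

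Genes of primed pluripotency, the later state of the postimplantation epiblast, were taken from a list of 11, of which 10 were detected. In PCBs 8 were at least 2-fold lower than in Flk1+ MPCs and none was higher, against 12.1% and 12.8% of all probes, with a median log2 difference of -4.90 (-4.62 with undetected signals at their bound, -0.20 over all probes). Where both arrays had to be well above background, 5 were lower. In sfPCBs 6 were lower and 2 higher, against 12.6% and 13.1%, with a median of -1.50 (-0.22 over all probes). Fgf5, the classical epiblast marker, was at 5711 in Flk1+ MPCs, 1064 in sfPCBs and 18.4 in PCBs, and 203 in M+CMs. Otx2, a homeobox factor of the epiblast and forebrain, was at 41939.9, 3650.28, 542 and 112 in the same order. Zic2 and Cer1 were at 2331 and 577 in Flk1+ MPCs, 102 and 65.9 in sfPCBs, and not well above background in PCBs, at least 150.0-fold and 37.1-fold lower there than in Flk1+ MPCs. Between the day 5.5 populations 7 of 10 were lower in PCBs and none was higher, against 7.36% and 6.13%, with a median log2 difference of -3.13 (-2.40 with undetected signals at their bound, 0.03 over all probes). With both arrays well above background, 4 were lower. From PCBs to M+CMs 2 of 8 were lower and 4 were higher, against 15.4% and 20.5%. Nodal, Dnmt3b and Foxd3 belong to both this list and the previous one.

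The genes that act with Lin28a in the let-7 pathway, 10 in all and each detected in every population, were followed as a list of their own. In PCBs 3 were at least 2-fold lower than in Flk1+ MPCs (Mycn, Hmga2 and Igf2bp1), against 12.1% of all probes, and 1 was with quantile normalization or without scaling. In sfPCBs 1 was lower (Mycn), against 12.6%, and none differed 2-fold between PCBs and sfPCBs (1 was lower without scaling). From PCBs to M+CMs 6 of 10 were lower and none was higher, against 15.4% and 20.5%, with a median log2 difference of -2.10 (0.15 over all probes). Hmga2, a chromatin protein repressed by let-7, was at 50084 in Flk1+ MPCs, 36359 in sfPCBs and 22092 in PCBs, and 319 in M+CMs. Mycn was at 34655, 13515, 10360.7 and 2009.6 in that order, Igf2bp1 at 16818, 14009, 7665 and 1923, and Igf2bp2 at 10950.1, 7636, 7075 and 5310. Lin28b, the paralog of Lin28a, was at 12901, 9308, 10689.8 and 409, and was named after its values were seen. Like Lin28a, these genes except Igf2bp2 had their lowest level in M+CMs by more than 2-fold against every other population.

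Other Sox and Klf factors, 15 in all, were compared with Sox2 and Klf4. Klf2 and Klf5 belong also to the pluripotency network list, and Sox3 to the primed list. In PCBs 7 were at least 2-fold lower than in Flk1+ MPCs and 3 were higher, against 12.1% and 12.8% of all probes, with a median log2 difference of -0.86 (-0.20 over all probes). In sfPCBs 2 were lower and 3 higher, against 12.6% and 13.1%, with a median of 0.29 (-0.22 over all probes). The number higher in sfPCBs was 5 with quantile normalization and 6 without scaling, and the number lower in PCBs was 3 where both arrays had to be well above background. Sox3, a close relative of Sox2, was at 253 in Flk1+ MPCs and 2293 in sfPCBs, and not well above background in PCBs and M+CMs, which placed it at least 147-fold lower in PCBs than in sfPCBs. Sox7, Sox17 and Sox18, used in endoderm and blood vessels, were at 223, 327 and 43.8 in Flk1+ MPCs and 413, 95.2 and 281 in sfPCBs, and none was well above background in PCBs or M+CMs. Against sfPCBs, 5 of 15 were lower in PCBs and 1 (Klf2) was higher, against 7.36% and 6.13%. The number lower was 7 with quantile normalization, 8 without scaling and 1 where both arrays had to be well above background.

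**Figure D3:**
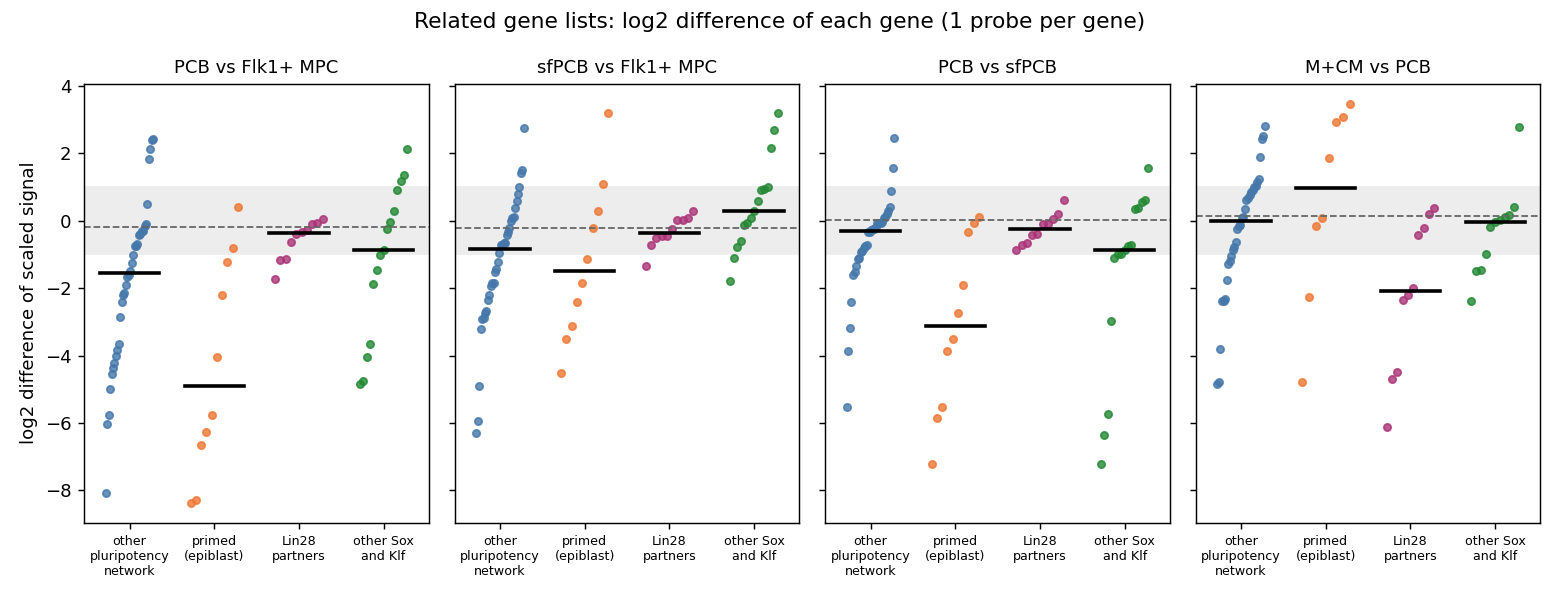
log2 difference of the scaled signal for each detected gene of the 4 lists (points), with the list median (bar) and the median over all probes compared (dashed line), in the 4 comparisons. The grey band is within 2-fold. The primed genes are lowest in PCBs against Flk1+ MPCs (median -4.90), and the Lin28 pathway is lower in M+CMs than in PCBs (median -2.10).

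Markers of other cell types moved with some of these differences. Of the 7 stromal markers, 4 were well above background in Flk1+ MPCs, 7 in sfPCBs and 6 in PCBs, and 7 in M+CMs, and their summed scaled signal was 3006, 274594, 141117 and 22123 in that order. Most of this sum came from the collagen genes Col1a2, at 780, 175056, 109298 and 18307, and Col1a1, at 1110.2, 58341, 28386 and 860.04, which were high in both day 5.5 populations. Thy1 went the other way, at 1065, 102, 147 and 74.2. Postn and Lum, which mark fibroblasts, were at 12884 and 8782 in sfPCBs, and at 13.2 (not well above background) and 30.2 in PCBs. The 4 endothelial markers summed to 3131 in sfPCBs, against 288 in Flk1+ MPCs, 232 in PCBs and 415 in M+CMs. Of the 5 neural markers, 4 were well above background in sfPCBs and in PCBs, and they summed to 1889 in Flk1+ MPCs, 4956 in sfPCBs, 2410.2 with CsAYTE and 3344 in M+CMs. Tubb3 and Nes, beside the higher Sox2 and Sox3 of sfPCBs, were at 1282 and 3516 in sfPCBs and 141 and 1554 in PCBs. Of the defining neural markers, Sox1 was similar, at 132 and 169, and Pax6 was not well above background in sfPCBs but read 530.1 in PCBs. The part of these other cells in the levels of Sox2, Pou5f1 and Tdgf1 was not tested. Of the 6 germ cell markers, Dazl was not well above background in any population, and Ddx4 was at 185 in Flk1+ MPCs, 67.4 in sfPCBs and 72.2 in PCBs and not well above background in M+CMs. Tfap2c was at 3286, 577, 139 and 79.4 in the order Flk1+ MPC, sfPCB, PCB and M+CM. The other germ cell markers were well above background in every population, Dnd1 at 1320.01, 952, 1263 and 2089, Nanos3 at 1728, 1596, 1451 and 1463, and Prdm1 at 1252, 299, 1113 and 211 in that order. The 5 endoderm markers, most of whose signal came from Gata6 (a gene also used in heart), summed to 15200, 6840, 17082 and 42521, and the 4 blood markers to 268, 3396, 3072 and 165.

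The transcripts whose pattern over the 4 populations was most like that of Pou5f1 were sought among 22804 detected curated RefSeq probes outside the list. Likeness was the distance between log2 profiles, each centred on its own mean, over only 4 arrays. The nearest were Bhlhe22 (distance 0.24), Hoxd1 (0.39), D430041D05Rik (0.47), Vax1 (0.72) and Rftn1 (0.81). Bhlhe22, Hoxd1 and Vax1 encode transcription factors of the nervous system and body axis. Of the 5, only Vax1 and Rftn1 were well above background on all 4 arrays, so the low end of the other profiles is background signal, as for Pou5f1 itself in PCBs. Scaled signals in Flk1+ MPCs were 324 for Bhlhe22, 371 for Hoxd1, 231 for D430041D05Rik, 1992 for Vax1 and 65829 for Rftn1, and in PCBs 5.80, 5.91, 4.01, 24.2 and 1586. The 2 Nanog probes lay 5.68 apart on this scale, and the A_55_P1968028 probe of Tdgf1 lay 6.99 and 6.49 from its other probes, which lay 0.65 apart.

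**Figure D4:**
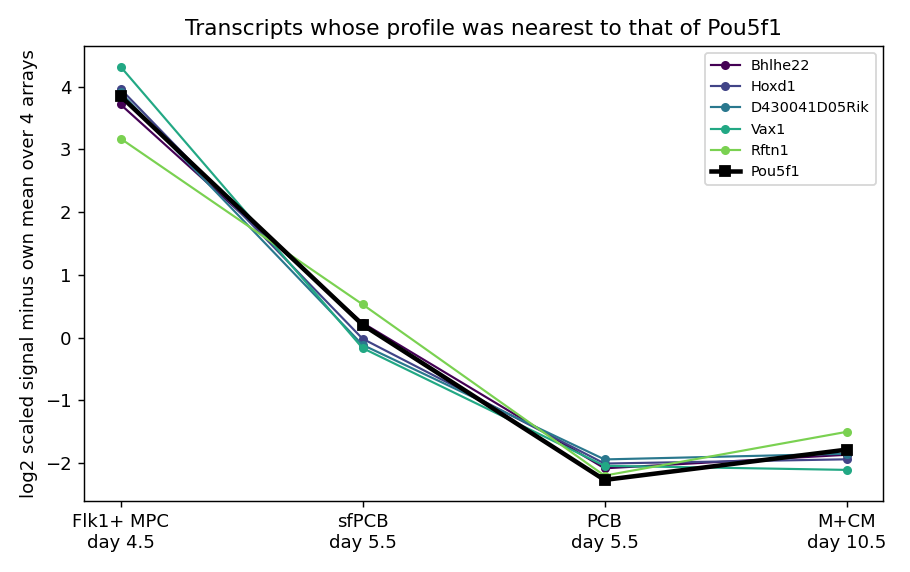
log2 scaled signal of Pou5f1 and its 5 nearest transcripts in the 4 populations, each minus its own mean over the arrays. Lines join the points of 1 transcript and do not show a time course. All 6 are highest in Flk1+ MPCs, and points not well above background have no order among themselves.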

How the data were processed

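RNA from 4 sorted populations was hybridized to 1-colour Agilent arrays. The files the authors deposited hold spot intensities written by Feature Extraction 11.5.1.1, with a background-subtracted processed signal with its error, and a table of log2 processed signals, neither scaled between arrays. The design headers name mouse build mm9.

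From these, control and outlier-flagged spots were left out, repeated spots averaged as log2, and each array scaled to the mean 75th percentile (2198). A probe was detected when at least 0.5 of its spots were well above background, and compared when detected in at least 1 array. The 2-fold limit had no test behind it. Where a gene had several probes, the highest mean log2 signal stood for it. Symbols came from RefSeq accessions (GRCm38.p6) for 27507 of 39428 probes. A comparison with a signal not well above background was given as a nominal bound. It used that signal or, if higher, the lowest signal called well above background on the array. The text named all list identifiers, up to 4 genes per related list with the largest PCB to Flk1+ MPC difference, the 5 nearest to Pou5f1 and the markers. Members and lists were chosen with earlier results of these data known. Steps were tested on simulated data.

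Alternatives were quantile normalization, no scaling, normexp (limma 3.58.1, R 4.3.3, offset of 50), an offset of 50, other detection filters, other probes and the deposited log2 table. Python 3.11.15 with numpy 2.4.6, pandas 2.3.3 and matplotlib 3.10.9 was used.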

Additional observations from a re-analysis of the deposited data

Results flagged for a closer look

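Sox3 and Sox18, relatives of Sox2, moved in opposite directions from Flk1+ MPCs in the populations with and without CsAYTE. Sox3 was higher in sfPCBs (log2 difference 3.18) and lower in PCBs (-4.04), so that the difference between these changes was -7.22 on the log2 scale. Sox18 was higher in sfPCBs (2.68) and lower in PCBs (-3.67), with a difference of -6.35. In PCBs neither gene was well above background, so these sizes are not firm, and as bounds PCBs were at least 147-fold lower than sfPCBs for Sox3 and at least 18.1-fold lower for Sox18. With 1 array per population, the differences were not tested.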

How the results depend on the processing

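No log2 difference of a probe beyond 2-fold changed sign under any of the alternatives run. For many of these the outcome was fixed in advance. Leaving out saturated spots and changing the detection filter left the values as they were, and an offset added to both signals keeps the sign. The shifts without scaling, at most 0.34, were too small to reverse a 2-fold difference. The statement therefore rests mainly on quantile normalization and normexp. The counts of genes turned mainly on the probe taken for Nanog and Tdgf1. Genes lower in PCBs than in Flk1+ MPCs numbered 5 instead of 3 with the mean over all probes and with the dimmest probe. With each probe counted, 6 of 12 probes were lower, with Tdgf1 counted more than once. Genes higher there numbered 1 instead of 2 with normexp, the offset of 50, the mean over probes and the dimmest probe. Genes lower in PCBs than in sfPCBs numbered 1 instead of 2 with normexp, the offset of 50 and detection required in both arrays, since Pou5f1 was then under 2-fold or not compared. Genes higher there numbered 1 instead of 0 with the mean over probes and the dimmest probe. With each probe counted, 2 of 12 probes were higher, both of Tdgf1. From PCBs to M+CMs, genes higher numbered 1 instead of 2 without scaling, with normexp, the offset of 50, the mean over probes and the dimmest probe. With each probe counted, 5 of 12 probes were lower there, against 3 of 9 genes. The dimmest probe and each probe counted were chosen after seeing the data. All other member counts (69 of 88) stayed within 1.5 times (lower in sfPCBs than in Flk1+ MPCs, 4 instead of 6 without scaling and with normexp), as did 209 of 224 counts over the related lists. Of the 69, 8 with saturated spots left out and 8 with no detection filter could not change. No saturated spots existed, and all 9 genes were detected in every comparison. The 32 list counts with saturated spots left out were likewise fixed in advance. Of the list counts that moved further, detection in both arrays gave 5 instead of 8 primed and 3 instead of 7 Sox and Klf genes lower in PCBs than in Flk1+ MPCs, and 4 instead of 7 and 1 instead of 5 lower than in sfPCBs. Without scaling, 1 instead of 3 Lin28 partners were lower in PCBs than in Flk1+ MPCs, 5 instead of 3 network and 6 instead of 3 Sox and Klf genes were higher and 1 instead of 2 Sox and Klf genes lower in sfPCBs than in Flk1+ MPCs, and 1 instead of 0 Lin28 partners and 8 instead of 5 Sox and Klf genes were lower in PCBs than in sfPCBs. Quantile normalization gave 1 instead of 3 Lin28 partners lower in PCBs than in Flk1+ MPCs, and 1 instead of 2 primed and 5 instead of 3 Sox and Klf genes higher in sfPCBs than in Flk1+ MPCs. Normexp gave 1 instead of 2 primed genes higher there, and with no detection filter 4 instead of 2 network genes were higher in PCBs than in sfPCBs. Without scaling, the log2 differences of all probes shifted by 0.18, 0.34, -0.15 and -0.21 in turn for PCBs and for sfPCBs over Flk1+ MPCs, for PCBs over sfPCBs and for M+CMs over PCBs, and quantile normalization shifted the last by -0.11. The offset and normexp shrink differences of dim probes, so that the log2 difference of Pou5f1 in PCBs against Flk1+ MPCs ranged from -6.12 to -3.74. No spot was saturated. No paired analysis was possible because each population had 1 array. Signals near background set the limit for Pou5f1 in PCBs and Sox2 in M+CMs.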
